A study of Mus musculus with 2 samples.

Results

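Acute phase genes of the liver were followed as 10 genes chosen by name, which are Saa1, Saa2, Saa3, Lcn2, Hp, Hpx, Orm1, Orm2, Hamp and Hamp2. They are 10 of the 31053 genes counted in single-cell RNA-seq libraries of hepatocytes obtained by collagenase perfusion of mouse liver. The table held 4513 barcodes, each standing for 1 droplet, and the unit is the UMI (unique molecular identifier), a tag that counts each captured transcript end once. The study addressed how the transcriptional co-activator YAP changes gene expression in adult hepatocytes. The question here was how the levels of these genes, and their spread between barcodes, differed between a control and a YAP-induced liver.

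Both libraries came from mice of C57BL/6 background, and both groups carried the tetracycline transactivator tTA under the liver-directed LAP promoter. The control library had the genotype LaptTA;WT, with no YAP transgene. The tetYAP 4W library had the genotype LaptTA; tetYAP and so also carried the Tet-YAP transgene (Col1A1-YAP S127A), whose product lacks an inhibitory phosphorylation site and is constitutively active. Doxycycline in the food held the transgene off, and a regular diet from an age of 4 weeks turned it on for 4 weeks. The diet of the control animals, their number and any pooling were not given in the sources used here. Each group was 1 library, so nothing below was tested between groups, and every interval is a 95% interval that covers counting error only. Xist gave 3 UMIs in the control library and 4859 in the tetYAP 4W library, and 4 Y-linked genes together gave 716 and 0, so genotype, sex and library cannot be told apart.

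The acute phase response is the change in liver protein secretion that follows infection or tissue damage. Interleukin 6 acting through STAT3, and interleukin 1 and tumour necrosis factor acting through NF-kB and C/EBP factors, are its classical inducers in hepatocytes. The genes followed here encode secreted proteins with separate tasks: apolipoproteins of the serum amyloid A family (Saa1, Saa2, Saa3), a binder of bacterial siderophores (Lcn2), scavengers of free hemoglobin and heme (Hp, Hpx), plasma carrier glycoproteins (Orm1, Orm2) and the iron hormone hepcidin with its mouse paralog (Hamp, Hamp2).

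In the control, 9509885 UMIs fell on 2989 barcodes, and the median barcode had 3117. In tetYAP 4W, 6777210 UMIs fell on 1524 barcodes, and the median barcode had 4150. No barcode sequence was shared between the libraries. Barcodes were clustered without the acute phase genes, and the clusters that carried no markers of another cell class are called the hepatocyte set here, with 2333 control barcodes (78.1%) and 672 tetYAP 4W barcodes (44.1%). A further 550 and 350 barcodes lay in clusters with markers of another class that were too weak or mixed to be named. Mitochondrial transcripts made up a median of 27.9% of the UMIs of the set in the control and 58.0% in tetYAP 4W.

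The hepatocyte label was checked against 12 hepatocyte genes, among them Apoa1, Apob and Fabp1, and all 12 were detected in the set of both libraries. As a measure of RNA that is free in the suspension and enters every droplet, the set was compared within each library with the T or NK, B, erythroid and endothelial-like barcodes (80 in the control, 345 in tetYAP 4W), which should not transcribe these genes. In the control, a set barcode held a median of 216 UMIs of the 12 genes and a barcode of the other classes 214.5, and 2 of the 12 genes were higher per barcode in the set and 4 lower. In tetYAP 4W the medians were 108 and 96, and all 12 genes were higher in the set, by a median ratio of 1.201. The control barcodes of the set were thus defined by the absence of other markers and did not hold more hepatocyte RNA per barcode. Per UMI they did, since the other classes were deeper: the 12 genes made up 6.87% of the UMIs of the control set and 4.64% of those of the other classes. In tetYAP 4W the largest cluster of the set (595 barcodes) was led by pancreatic acinar genes such as Pnlip, Prss2 and Cpb1. Levels are therefore given for the set and for all barcodes, and each is set beside the barcodes of the other classes. The mouse Yap1 row gave 120 and 55 UMIs in the set, a log2 ratio of 0.19 (-0.29 to 0.67), and no row was named for the transgene.

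The serum amyloid A genes lie together on chromosome 7, and Saa1 and Saa2 encode the main circulating forms, which travel on high-density lipoprotein. Saa1 (chromosome 7, 46740497 to 46743181 in GRCm38.p6) had 347 UMIs in the control set, a level of 47.5 CPM (UMIs of the gene per 1000000 UMIs of the set; interval 42.6 to 52.7). It had 289 UMIs in tetYAP 4W, a level of 98.6 CPM (87.6 to 111). The level was thus higher in tetYAP 4W by a log2 ratio of 1.06 (0.83 to 1.28), an interval that includes 2-fold. Saa2 (chromosome 7, 46751833 to 46754313) had 115 UMIs and 15.7 CPM (13.0 to 18.9) in the control and 177 UMIs and 60.4 CPM (51.8 to 70.0) in tetYAP 4W. Its log2 ratio was 1.94 (1.59 to 2.29), past 2-fold throughout its interval.

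Saa2 made up 24.9% (21.0 to 29.1) of the UMIs of the pair in the control and 38.0% (33.6 to 42.6) in tetYAP 4W. The copies are close enough in sequence that reads could be split between them by the counting, so their sum is the safer value. It went from 63.2 to 159 CPM, a log2 ratio of 1.33 (1.14 to 1.52). Saa3, a form also made outside hepatocytes, in macrophages and fat, had 26 and 12 UMIs and levels of 3.56 and 4.09 CPM. The interval of its log2 ratio, -0.92 to 1.24, shows that no difference was detectable at this depth.

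The 250 bases before the start of Saa1 and of Saa2 are shown because the pair shared a higher level in tetYAP 4W. The start used for Saa1 lies inside the span given above, so its window overlaps that span, whereas the Saa2 window lies outside the span of Saa2. The identity of the windows was not used to judge how reads were assigned to the copies. Both windows are read on the strand of the gene, 5′ to 3′, from RefSeq on GRCm38.p6, with a match to the C/EBP motif TTGCNNAA in capitals. Saa1 is taken from chr7:46742981-46743230 (minus strand) and Saa2 from chr7:46751583-46751832 (plus strand).
Saa1: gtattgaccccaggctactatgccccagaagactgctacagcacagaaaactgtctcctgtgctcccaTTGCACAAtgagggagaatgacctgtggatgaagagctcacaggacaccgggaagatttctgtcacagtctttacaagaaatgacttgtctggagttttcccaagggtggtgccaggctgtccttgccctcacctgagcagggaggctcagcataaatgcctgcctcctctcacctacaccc
Saa2: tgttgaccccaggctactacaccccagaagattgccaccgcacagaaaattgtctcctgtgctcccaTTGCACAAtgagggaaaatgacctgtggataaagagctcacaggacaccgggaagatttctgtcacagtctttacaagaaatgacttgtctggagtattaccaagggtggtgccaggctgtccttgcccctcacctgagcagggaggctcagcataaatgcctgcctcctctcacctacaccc
The windows were identical at 238 of 251 aligned columns (94.8%), with 11 substitutions and 2 gaps, and both held TTGCACAA at nearly the same place, ending 175 and 176 bases before the start. The window of Saa3, which lies within the annotated span of that gene, was identical to that of Saa1 at 48.5% of aligned columns. Searched on both strands, TTGCNNAA was found in 6 of the 8 members with a window in the table, which are Saa1, Saa2, Saa3, Lcn2, Hpx and Orm2, and in 9.56% of all 32851 promoter windows. The windows of Hp and Orm1 were not analysed here. The NF-kB motif GGGNNNTTC, found in 11.8% of windows, had no match in the 8, which says only that these letters are not in these windows. A match describes the letters and is not evidence of binding.

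Lcn2 (chromosome 2, 32384637 to 32387739) encodes lipocalin 2, which starves bacteria of iron and is stored in neutrophil granules as well as secreted by the injured liver. It was the least abundant member in the control, with 8 UMIs in the set and 1.09 CPM (0.472 to 2.16). In tetYAP 4W it had 47 UMIs and 16.0 CPM (11.8 to 21.3), a log2 ratio of 3.87 (2.78 to 5.17). Over all barcodes Lcn2 gave 11 and 111 UMIs, a log2 ratio of 3.82 (2.93 to 4.87). It was no more frequent per barcode in the set than in the other classes of tetYAP 4W, as described with the classes.

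Hp and Hpx encode haptoglobin and hemopexin, which clear free hemoglobin and free heme from plasma. Hp (chromosome 8, 109575128 to 109579172) had 10926 UMIs in the control set and 9877 in tetYAP 4W, levels of 1494 CPM (1466 to 1522) and 3370.5 CPM (3304 to 3438). The log2 ratio of Hp was 1.17 (1.13 to 1.21), past 2-fold. Among barcodes with at most 30% mitochondrial UMIs, which were 1455 of 2333 in the control but 84 of 672 in tetYAP 4W, it was 0.85 (0.74 to 0.95) and no longer past 2-fold. Hpx (chromosome 7, 105591611 to 105600116) had 17884 and 10655 UMIs, levels of 2446 CPM (2410.0 to 2482) and 3636 CPM (3567 to 3706). Its log2 ratio of 0.57 (0.54 to 0.61) was above 0 and below 2-fold. Over all barcodes both differences were smaller, with log2 ratios of 0.74 (0.70 to 0.77) for Hp and 0.28 (0.25 to 0.31) for Hpx.

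Orm1 and Orm2 encode the orosomucoids, acid glycoproteins that carry basic drugs and steroids and are classical acute phase proteins. On the scale of all UMIs they differed in direction. Orm1 (chromosome 4, 63344556 to 63348163) had 7918 UMIs in the control set and 1488 in tetYAP 4W, levels of 1083 CPM (1059 to 1107) and 508 CPM (482 to 534). Its log2 ratio was -1.09 (-1.17 to -1.01), just past 2-fold lower. This direction rested on the scale: per non-mitochondrial UMI it was -0.42 (-0.50 to -0.34), and per UMI of the 12 hepatocyte genes it was 0.28 (0.19 to 0.36). Orm2 (chromosome 4, 63362449 to 63365877) had 34 and 39 UMIs, levels of 4.65 CPM (3.22 to 6.50) and 13.3 CPM (9.46 to 18.2), a log2 ratio of 1.52 (0.82 to 2.22). Orm2 made up 0.428% (0.296 to 0.597) of the UMIs of the pair in the control and 2.55% (1.82 to 3.48) in tetYAP 4W.

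The hepcidin genes differed in opposite directions. Hamp (chromosome 7, 30942368 to 30944029) encodes hepcidin, the hormone that closes the iron exporter ferroportin, and was the most abundant member in the control. It had 51203 UMIs there, a level of 7002 CPM (6942 to 7063), and 4460 UMIs in tetYAP 4W, a level of 1522 CPM (1478 to 1567). The log2 ratio of Hamp was -2.20 (-2.25 to -2.16). Hamp2 (chromosome 7, 30922372 to 30924181), a mouse copy whose product has not been given the iron-regulating role of hepcidin, had 233 UMIs and 31.9 CPM (27.9 to 36.2) in the control. In tetYAP 4W it had 1747 UMIs and 596 CPM (569 to 625), a log2 ratio of 4.23 (4.03 to 4.43).

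Hamp2 thus went from 0.453% (0.397 to 0.515) of the UMIs of the pair to 28.1% (27.0 to 29.3). This share does not depend on the library total, nor on the loss of other transcripts. Barcodes of the other classes carried the same contrast, with 0.379% (0.139 to 0.824) in the control and 29.6% (27.9 to 31.4) in tetYAP 4W. The pair summed to 7034 CPM in the control against 2118 CPM with tetYAP 4W, a log2 ratio of -1.73 (-1.77 to -1.69). As for the amyloid pair, the copies are alike enough for reads to be split between them by the counting.

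The windows before both hepcidin genes are shown because the pair moved in opposite directions. The BMP response element GGCGCC, the letters through which SMAD proteins are known to drive hepcidin, and the STAT3 motif TTCNNNGAA are in capitals. Hamp is taken from chr7:30944030-30944279 and Hamp2 from chr7:30924182-30924431, both on the minus strand and read 5′ to 3′ (RefSeq, GRCm38.p6).
Hamp: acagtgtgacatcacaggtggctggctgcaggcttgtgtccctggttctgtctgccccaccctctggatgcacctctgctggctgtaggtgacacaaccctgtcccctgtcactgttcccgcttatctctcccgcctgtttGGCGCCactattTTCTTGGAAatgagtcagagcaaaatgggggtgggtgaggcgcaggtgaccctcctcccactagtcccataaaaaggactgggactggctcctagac
Hamp2: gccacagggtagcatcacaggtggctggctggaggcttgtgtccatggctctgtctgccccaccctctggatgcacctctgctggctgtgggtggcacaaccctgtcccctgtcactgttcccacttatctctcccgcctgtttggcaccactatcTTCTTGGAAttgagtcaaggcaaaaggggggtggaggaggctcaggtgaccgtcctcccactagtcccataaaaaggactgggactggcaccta
The windows were identical at 227 of 253 aligned columns (89.7%), with 20 substitutions and 6 gap columns. Both held the STAT3 match TTCTTGGAA, 97 to 89 bases before the start of Hamp and 94 to 86 before that of Hamp2. Hamp alone held GGCGCC, 109 to 104 bases before its start, and the substitution within it was G106A, given as the Hamp base, its place counted from 1 at the base just before the Hamp start, and the Hamp2 base. Among all windows, 7.02% held TTCNNNGAA and 9.59% held GGCGCC on either strand. Hamp and Hamp2 were the only 2 of the 8 members with a match to TTCNNNGAA.

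**Figure D1:**
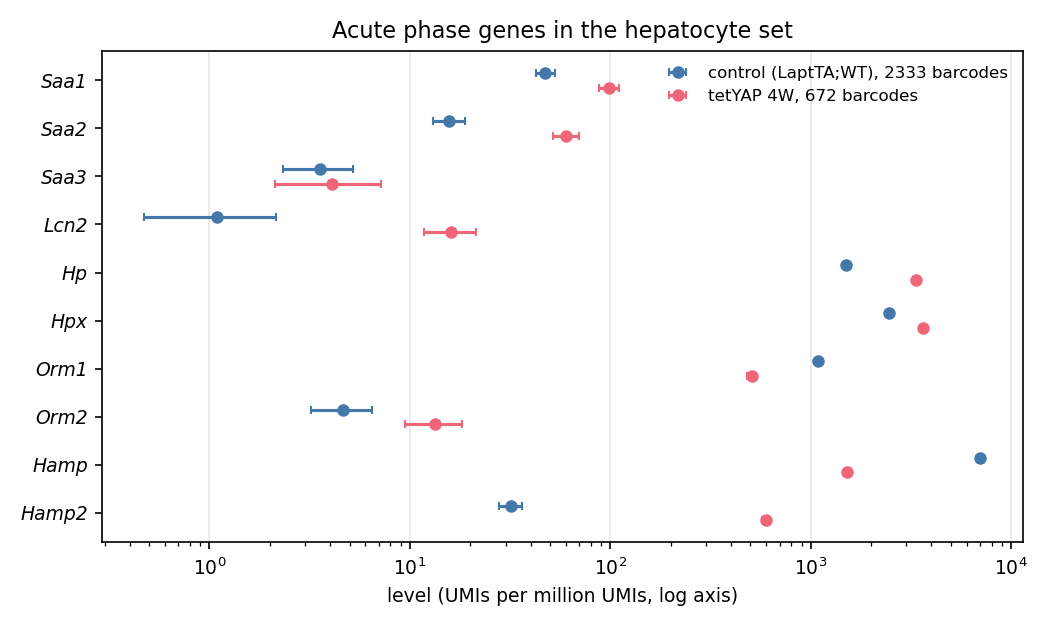
Levels of the 10 acute phase genes in the hepatocyte set, in CPM on a log axis, with exact Poisson 95% intervals; blue points are the control (2333 barcodes) and red points tetYAP 4W (672 barcodes). Hamp moved from 7002 to 1522 and Hamp2 from 31.9 to 596, whereas the intervals of Saa3 overlapped.

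In the control set the order of levels was Hamp, Hpx, Hp, Orm1, Saa1, Hamp2, Saa2, Orm2, Saa3 and Lcn2. UMIs count transcript ends, so these levels need no division by length. Only Orm2 (4.65 CPM) and Saa3 (3.56 CPM) were neighbours with overlapping intervals. In tetYAP 4W the order was Hpx, Hp, Hamp, Hamp2, Orm1, Saa1, Saa2, Lcn2, Orm2 and Saa3, and the intervals of Lcn2 and Orm2 overlapped. Hamp gave up the first place, and Hamp2 moved above Orm1.

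Of the 10 members, 4 were past 2-fold higher in the tetYAP 4W set (Saa2, Lcn2, Hp and Hamp2), beside 6.48% of the 10552 genes with at least 10 UMIs. Another 2 were past 2-fold lower (Orm1 and Hamp), beside 5.57% of these genes. The median log2 ratio was 1.11 over the members and -0.26 over all genes tested. Over all barcodes 3 members were past 2-fold higher (Saa2, Lcn2 and Hamp2), beside 23.9% of 12621 genes, and 2 were past 2-fold lower (Orm1 and Hamp), beside 3.76%. There the median was 0.80 over the members and 0.60 over all genes, and the members ran from -2.42 (Hamp) to 4.07 (Hamp2).

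The choice of total moved these calls, since mitochondrial transcripts took a larger share in tetYAP 4W and the 12 hepatocyte genes made up 6.87% of the UMIs of the set in the control and 2.66% in tetYAP 4W. Per non-mitochondrial UMI, a scale added after the data were seen, 7 members were past 2-fold higher, beside 12.5% of all genes, and 1 was past 2-fold lower (Hamp, -1.52), beside 0.986%, with a median of 0.42 over all genes. Per UMI of the 12 hepatocyte genes, 7 members were higher, beside 25.9% of genes, none was past 2-fold lower, beside 0.408%, Hamp stood at -0.83 (-0.88 to -0.79), and the median over all genes was 1.11. Saa2, Lcn2, Hp and Hamp2 were past 2-fold higher and Hamp below 0 on each of these 3 scales. Without the barcodes above 30% mitochondrial UMIs, 3 members were past 2-fold higher (Saa1, Saa2 and Hamp2), beside 13.6% of genes, and 1 was lower (Hamp), beside 0.507%, and Lcn2 had too few UMIs to be counted.

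**Figure D2:**
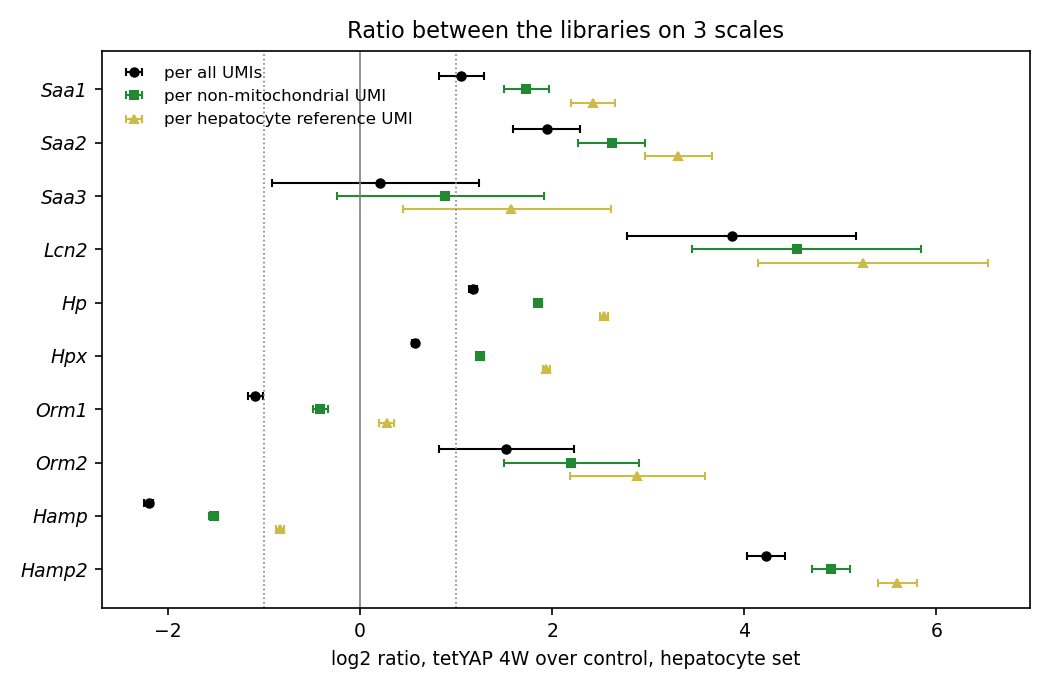
Log2 ratio of each acute phase gene, tetYAP 4W over control, in the hepatocyte set with 95% counting intervals, per all UMIs (black circles), per non-mitochondrial UMI (green squares) and per UMI of the 12 hepatocyte genes (yellow triangles); dotted lines mark 2-fold. Orm1 lay at -1.09, -0.42 and 0.28 on these scales, and Hamp2 at 4.23 or above on each.

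The difference could also be read in droplets of other cells. With the T or NK, B, erythroid and endothelial-like barcodes in place of the set, an alternative added after the data were seen, Hamp2 was still past 2-fold higher and Hamp past 2-fold lower, and no other member was past 2-fold. That comparison stood beside 1.54% of genes past 2-fold higher and 1.4% lower. Of the 10 members, Saa3 had 0 UMIs in these classes in the control, and the other members had at least 1. The percentage of barcodes with a UMI of Saa1 was 13.8% in the control set and 12.5% in the other classes, at median depths of 3100 and 4511.5 UMIs. In tetYAP 4W it was 32.4% and 28.1%, at depths of 4059.5 and 4982. For Hamp2 these percentages were 9.39% and 7.50% in the control and 86.6% and 87.8% in tetYAP 4W. Detection in a barcode was thus no sign that the cell made the transcript.

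With each barcode thinned to 1000 UMIs, which left out 23 shallower control barcodes and none in tetYAP 4W, Hamp2 was detected in 3.25% of the control set and 45.8% of the tetYAP 4W set. Hamp was detected in 99.2% and 78.4% at this depth, Orm1 in 66.9% and 38.2%, and Hp in 76.8% and 92.9%. Saa1 was detected in 5.50% and 8.93%, Saa2 in 1.65% and 5.51%, and Lcn2 in 0.173% and 1.93%. The order of the libraries was the same as in the unthinned levels for these 7 genes.

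Within the control, Hamp was the only member higher per barcode in the set than in the other classes, with 21.9 against 19.7 UMIs, a ratio of 1.11 (1.06 to 1.17), beside 0.19% of all genes tested. Hp had a ratio of 0.946 (0.856 to 1.05), Hpx 0.954 (0.882 to 1.03) and Orm1 0.966 (0.858 to 1.09). The intervals of these 3 genes included 1. Per UMI, Hp stood at 1494 CPM in the set and 1082 CPM in the deeper other classes, Hpx at 2446 and 1757 CPM and Hamp at 7002 and 4307 CPM. The set was not uniform: the 39 barcodes of 1 control cluster had ratios per barcode of 0.218 for Hp, 0.146 for Orm1 and 0.216 for Hamp.

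Within tetYAP 4W, 5 of the 10 members were higher per barcode in the set than in the other classes, beside 4.88% of all genes tested. Hp led them with 14.7 against 8.22 UMIs per barcode, a ratio of 1.79 (1.72 to 1.87). Saa1 had a ratio of 1.41 (1.13 to 1.78), Hpx 1.39 (1.34 to 1.44), Hamp 1.27 (1.202 to 1.34) and Hamp2 1.18 (1.08 to 1.29). These 5 had RNA in the set beyond what the other droplets held. Saa2 (1.01, 0.779 to 1.32), Orm1 (1.05, 0.957 to 1.15), Lcn2 (0.894, 0.545 to 1.49), Orm2 (1.25) and Saa3 (1.54) had intervals that included 1. The excess of Hp was in the largest cluster of the set, with 15.5 UMIs per barcode and a ratio of 1.88. In the other cluster of the set (77 barcodes) Hp had a ratio of 1.07 (0.979 to 1.16) and Hamp 1.34 (1.22 to 1.48).

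Among the other classes of tetYAP 4W, the neutrophil or monocyte-like barcodes (48, with none in the control) stood out for Lcn2. They held 13 UMIs of Lcn2, or 0.271 per barcode, a ratio of 3.46 (1.64 to 6.94) over the T or NK, B, erythroid and endothelial-like barcodes. They also held more Hp per barcode, with a ratio of 1.14 (1.03 to 1.26), but they were deeper, with medians of 5881.5 against 4982 UMIs. This small Hp ratio does not allow for depth. Both products are known from neutrophil granules, and the source of the Hp in these barcodes was not tested. These 13 UMIs were 11.7% of the Lcn2 UMIs of the library, and 42.3% were in the hepatocyte set. Markers of neutrophils or monocytes in the set came to 1.64 CPM in the control (4 of 10 detected) and 23.5 CPM in tetYAP 4W (8 of 10), with Retnlg and Cxcr2 at 0 in both. Macrophage markers came to 22.8 and 719 CPM (10 of 10 in both). Their part in the Lcn2 level was not tested.

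The macrophage-like barcodes of tetYAP 4W (109) held less of the abundant members than other droplets did. Their ratios were 0.433 (0.389 to 0.482) for Hp, 0.496 for Hpx, 0.438 for Orm1, 0.446 for Hamp and 0.430 for Hamp2. In the control the macrophage-like barcodes (26) had ratios of 0.505 for Hp, 0.584 for Hpx, 0.549 for Hamp and 0.756 (0.572 to 0.986) for Orm1. Across the classes, 78.8% of all member UMIs in the control and 54.8% in tetYAP 4W were in the hepatocyte set, close to its share of barcodes in the control (78.1%) and above it in tetYAP 4W (44.1%).

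**Figure D3:**
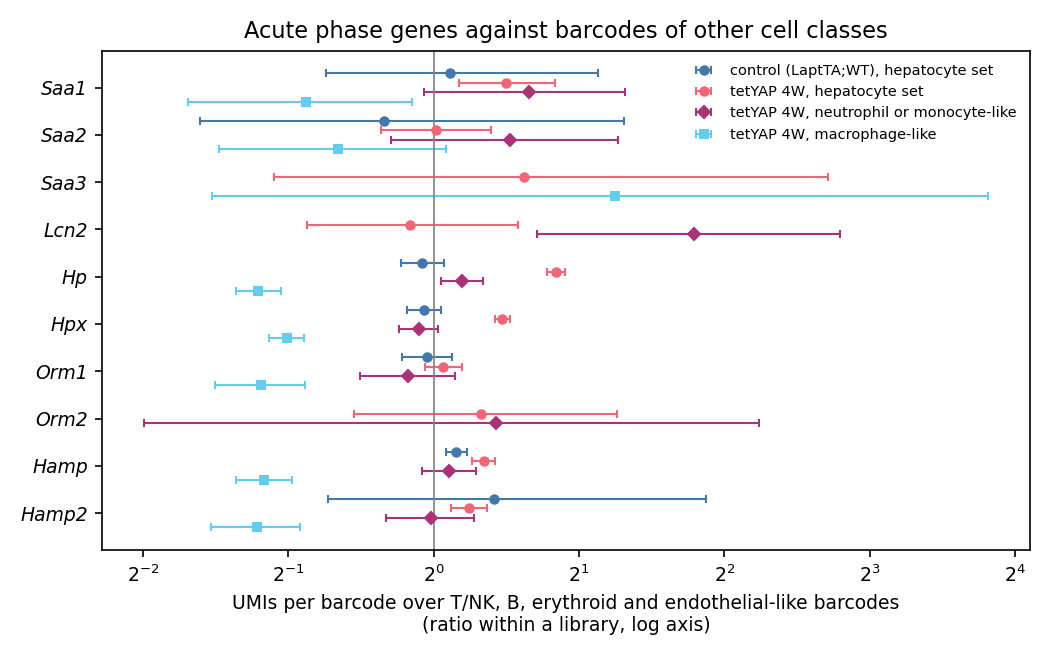
UMIs per barcode of each acute phase gene, relative to the T or NK, B, erythroid and endothelial-like barcodes of the same library (log axis, 1 means equal), with 95% counting intervals, for the hepatocyte set of each library and the neutrophil or monocyte-like and macrophage-like barcodes of tetYAP 4W; genes with under 3 UMIs on either side have no point. Hp in the tetYAP 4W set lay at 1.79 and Lcn2 in neutrophil or monocyte-like barcodes at 3.46, whereas the macrophage-like points for Hp, Hpx, Orm1, Hamp and Hamp2 lay below 0.5.

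The spread between barcodes was given as a dispersion index, the variance of a gene's counts around the value that the barcode's total predicts, divided by that value, which is 1 for random draws. It was computed for genes with at least 0.1 UMIs per barcode, which 5 members passed in the control and 7 in tetYAP 4W. In the control set the index was 1.03 for Saa1, 1.09 for Orm1, 1.11 for Hp, 1.196 for Hpx and 1.74 for Hamp, against a median of 1.03 over 2200 genes. Hamp was the only member above 1.5, beside 1.86% of all genes. Of the 333 genes with at least 1 UMI per barcode, 10.5% were above 1.5, with a median index of 1.10. Of the 12 hepatocyte genes 4 were above 1.5. Over the whole control set, Orm1 and Hp therefore varied little beyond sampling, although their index was above that of 86.9% and 90.1% of genes. The 39 barcodes with low Hp and Orm1 described above were part of this set. Saa1, at 0.149 UMIs per barcode, was too sparse for the index to show much.

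In the tetYAP 4W set the index was higher, with 6 of 7 members above 1.5, beside 12.7% of 2256 genes. It was 3.60 for Hp, 3.03 for Hpx, 2.87 for Hamp, 2.59 for Hamp2, 1.76 for Orm1, 1.67 for Saa1 and 1.07 for Saa2. The median was 1.16 over all genes and 2.02 over the 12 hepatocyte genes, of which 10 were above 1.5. Of the genes with at least 1 UMI per barcode, which include 5 of the members, 53.6% were above 1.5, as were all 5 of these. With barcodes thinned to 1000 UMIs, 1 member was above 1.5, and the share of all genes at this depth is not given. Thinning lowers the counts of every gene, and the index nears 1 as counts fall. The index fell to 1.59 for Hamp, 1.60 for Hamp2 and 1.29 for Orm1 when mitochondrial UMIs were left out of the totals, while that of Hp was then 4.83.

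**Figure D4:**
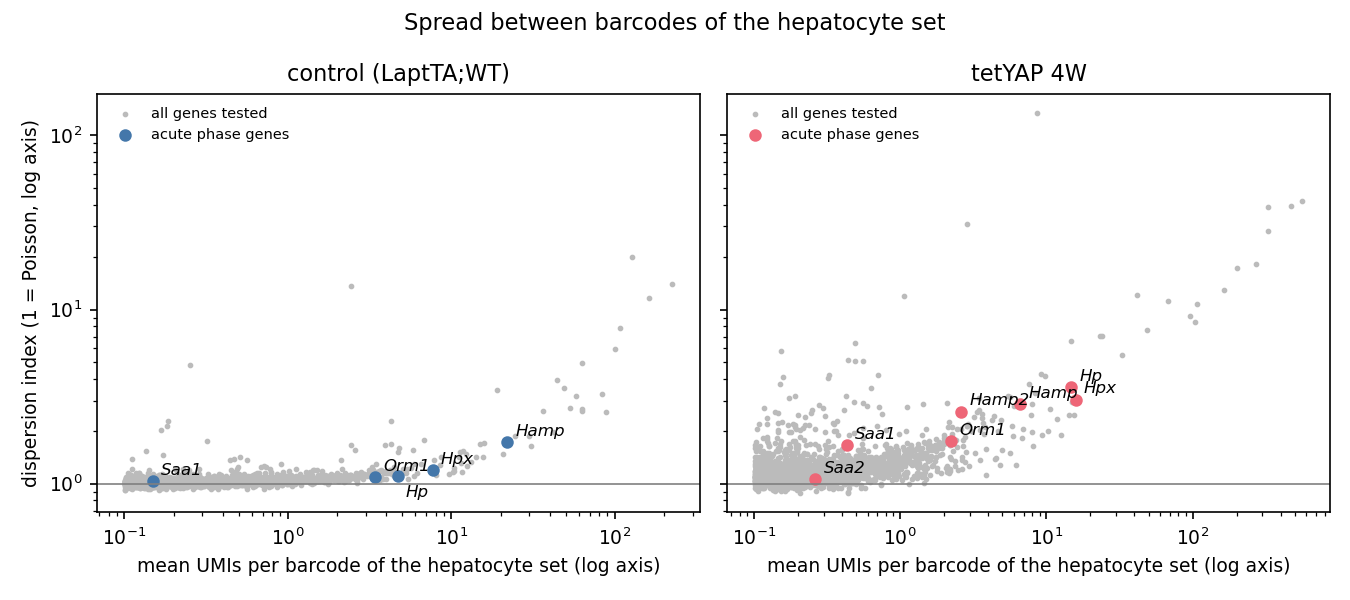
Dispersion index (1 for Poisson counts) against mean UMIs per barcode of the hepatocyte set, both on log axes, in the control (left) and tetYAP 4W (right); grey points are all genes tested and coloured points the acute phase genes. Hamp, at 1.74, was the highest member in the control, and Hp, at 3.60, the highest in tetYAP 4W.

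The barcodes with the highest counts differed in which members they held. In tetYAP 4W the barcode with the most Hamp2 held 44 UMIs of it, with 50 of Hamp, 20 of Orm1, 23 of Hp and 36 of Hpx, where the medians of the set were 2, 6, 2, 13 and 14. Its mitochondrial share was 8.11% and it held 652 UMIs of the 12 hepatocyte genes, where the median of the set was 108. The barcode with the most Saa1 held 13 UMIs of it and 5 of Saa2, with 47 each of Hp and Hpx but 3 each of Hamp and Hamp2, at a mitochondrial share of 67.7%. The barcode with the most Hp (60 UMIs) held 45 of Hpx, 7 of Hamp and none of Hamp2, Orm1, Saa1 or Saa2. Another, with 53 UMIs of Hamp, held 2 of Hamp2. When the 2 barcodes with the highest count of each member were left out (10 in tetYAP 4W), an alternative added after the data were seen, 5 members stayed above 1.5 and the index of Saa1 was 1.23. The share of all genes above 1.5 without these barcodes is not given.

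Co-expression was described by the correlation between barcodes of what was left of each gene's count after the barcode's total was accounted for. The points share 1 library and its free RNA, so no p-value is given. In the control set, over 2333 barcodes and 10 pairs of members, r lay between -0.03 and 0.14, with a median of 0.083, and no pair stood out. In the tetYAP 4W set, over 672 barcodes and 21 pairs, it lay between -0.03 and 0.47, with a median of 0.141.

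The scavengers Hp and Hpx went together (r = 0.47), and so did Hamp and Hamp2 (0.46), Orm1 and Hamp2 (0.38) and Orm1 and Hamp (0.35). Hp itself lay near 0 with Orm1 (-0.03), Hamp (0.03) and Hamp2 (-0.01). Hpx had intermediate values with Saa2 (0.21), Hamp (0.18), Orm1 (0.16) and Hamp2 (0.14), as had Saa1 with Orm1 (0.21). Saa1 and Saa2 had r = 0.24, and without the barcodes of highest counts 0.07, so that this pair rested on a few barcodes. Without those barcodes Hp and Hpx had 0.44, Hamp and Hamp2 0.36 and Orm1 and Hamp2 0.29.

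The share of mitochondrial transcripts moved with Orm1 and the hepcidins. Over the tetYAP 4W set its correlation was -0.55 with Hamp, -0.46 with Hamp2 and -0.45 with Orm1, against -0.28 with Hpx and -0.04 with Hp. When totals without mitochondrial UMIs were used, r was 0.22 for Hamp and Hamp2, 0.16 for Orm1 and Hamp2 and 0.10 for Orm1 and Hamp, whereas Hp and Hpx had 0.56. Hp and Hpx therefore went together on both totals, and the relation of Orm1 to the hepcidins was weak on the second.

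**Figure D5:**
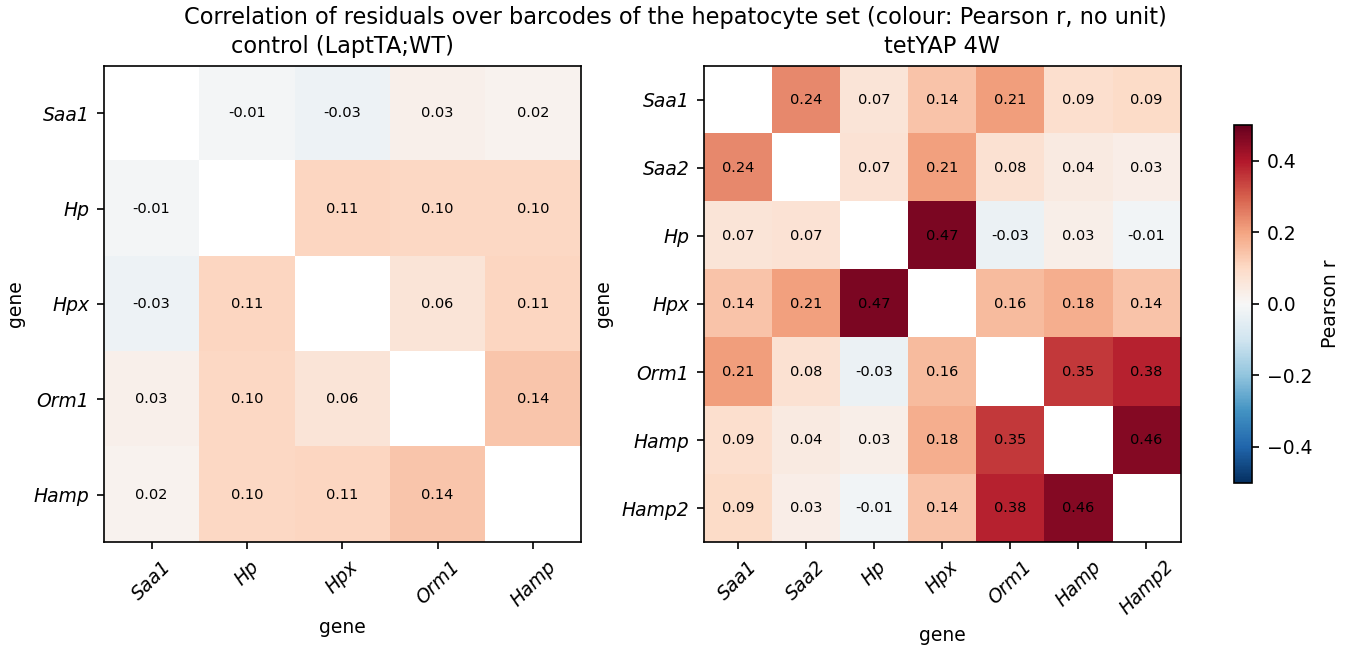
Correlation (Pearson r, no unit) between acute phase genes over the barcodes of the hepatocyte set after the barcode's total was accounted for, in the control (left, 2333 barcodes) and tetYAP 4W (right, 672 barcodes); colour and printed value both give r, for members with at least 0.1 UMIs per barcode. Control pairs reached 0.14, and Hp with Hpx and Hamp with Hamp2 stood at 0.47 and 0.46 in tetYAP 4W.

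On totals of all UMIs, the genes most like each member differed between Hp and the hepcidins. The genes most alike were not sought on totals without mitochondrial UMIs, on which Orm1 and the hepcidins had weaker correlations with each other. In the tetYAP 4W set Hp was most like Trf, which encodes the iron carrier transferrin (r = 0.63), the complement component C3 (0.57) and Apoe (0.56). Hpx was most like Apoe (0.61), Alb (0.58) and Trf (0.48). Hamp2 was most like the apolipoprotein genes Apoc3 (0.58), Apoc1 (0.54) and Apoa2 (0.53), Hamp had 0.55 with Apoc1 and 0.52 with Apoc3, and Orm1 had 0.54 with Apoa2 and 0.51 with Apoc1. Saa1 was most like Saa2, Atp5k (0.21) and Orm1 (0.21). In the control set Hamp had 0.44 with Apoa2 and 0.37 with Mup3, Hp 0.26 with Apoe, and the highest value of Saa1 with any gene was 0.08.

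Other genes of the response were taken from lists. Of 24 further acute phase genes, 23 had at least 10 UMIs in the set, and 7 were past 2-fold higher and 1 lower, beside the 6.48% and 5.57% of all genes, with a median log2 ratio of 0.76. Per non-mitochondrial UMI 13 were higher and 1 lower, beside 12.5% and 0.986% of all genes. The metal-binding metallothioneins Mt1 (2.81, 2.60 to 3.03) and Mt2 (2.67, 1.90 to 3.49), C3 (2.05, 2.02 to 2.08) and the copper carrier ceruloplasmin, Cp (1.76, 1.69 to 1.82), were among those higher. Orm3, a further orosomucoid copy, gave 2 and 29 UMIs. Mt1 and Mt2 were lower per barcode in the set than in the T or NK, B, erythroid and endothelial-like barcodes, with ratios of 0.0409 and 0.0264 in the control and 0.709 and 0.569 in tetYAP 4W, whereas C3 (1.94) and Cp (1.56) were higher in the tetYAP 4W set. The gene past 2-fold lower was Serpina3k (-2.54), a serine protease inhibitor. Higher and lower genes thus stood in 1 list, as among the members.

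Of 5 negative acute phase genes, whose products fall in the classical response, Trf (1.77) and Serpina6, the corticosteroid-binding globulin (1.46), were past 2-fold higher and the retinol carrier Rbp4 (-1.19) was past 2-fold lower. Alb, albumin, had a log2 ratio of 0.71 (0.70 to 0.72), under 2-fold. Per non-mitochondrial UMI Alb was also past 2-fold higher and none of the 5 was past 2-fold lower. The 12 hepatocyte genes had a median of -0.65, with 4 past 2-fold lower, Fabp1 (-2.47), Apoa2 (-1.48), Apoa1 (-1.47) and Apoc3 (-1.25), and none past 2-fold higher. Per non-mitochondrial UMI 1 of them was past 2-fold lower (Fabp1) and their median was 0.02. The 4 lowest of these are apolipoprotein genes and the fatty acid binder Fabp1.

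Of the 7 ligands, Il1a gave 6 UMIs in the control set and 15 in tetYAP 4W and Il1b gave 1 and 30, both past 2-fold higher. Tnf gave 1 and 0 there, and Il6, Osm, Lif and Il22 gave 0 in both. Over all barcodes, where the immune-cell droplets are included, Il1b gave 12 and 455 UMIs, Il1a 34 and 204, Tnf 7 and 29, Il6 0 and 18, Osm 0 and 16, Lif 0 and 2, and Il22 0 in both. The ligands were thus read mainly outside the hepatocyte set. Beside 6.48% of all genes higher and 5.57% lower, none of the 16 receptor and signalling genes with at least 10 UMIs in the set was past 2-fold. Per non-mitochondrial UMI 3 of them were past 2-fold higher (Il6ra, Il6st and Socs3), beside 12.5% of all genes. Over all barcodes 8 of 17 were past 2-fold higher and 1 lower, beside the 23.9% and 3.76% of all genes. In the set, on the scale of all UMIs, the interleukin 6 receptor genes Il6ra (1.05, 0.46 to 1.62) and Il6st (0.89, 0.64 to 1.14) had intervals above 0. So had the STAT3 target Socs3 there (2.23, 0.90 to 3.67, on 8 and 15 UMIs). Il1rap (-1.17, -1.52 to -0.83), Lifr (-0.94, -1.15 to -0.74) and the factor Cebpa (-1.20, -1.44 to -0.98) had intervals below 0 in the set.

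None of the 13 genes of hepcidin control with at least 10 UMIs in the set was past 2-fold in either direction, beside 6.48% of all genes higher and 5.57% lower. Over all barcodes 3 of 14 (21.4%) were past 2-fold higher, near the 23.9% of all genes. Tmprss6, a protease that restrains hepcidin, had a log2 ratio of 0.50 (0.36 to 0.65) in the set, 1.18 (1.03 to 1.33) per non-mitochondrial UMI, which is past 2-fold, and -0.01 (-0.13 to 0.11) over all barcodes. Tfr2, a transferrin sensor, stood at 0.27 (0.09 to 0.44) in the set and 0.00 (-0.14 to 0.14) over all barcodes. The BMP receptor gene Bmpr1a (-0.78, -1.47 to -0.14) and the signal carrier Smad1 (-0.81, -1.51 to -0.16) were lower in the set, on 25 and 24 UMIs in tetYAP 4W. Per non-mitochondrial UMI their intervals included 0, at -0.10 and -0.13, and over all barcodes Smad1 stood at 0.37 (0.04 to 0.70).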

How the data were processed

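Hepatocytes isolated by perfusion were profiled with Chromium single-cell 3′ reagents, 1 library per group. The authors deposited raw UMI counts, whole numbers per gene and barcode, made with Cell Ranger on the mm10 assembly, with Seurat 3 named for later steps. Per the methods of the study, barcodes were reduced to a fixed number per condition and those with very high UMI counts were left out, which limits the highest counts. After these steps 2989 control and 1524 tetYAP 4W barcodes remained, with highest totals of 7277 and 7493 UMIs. The selection may thus have fallen unequally on the libraries, and its part in levels, class shares and spread was not tested. No column belonged to another sample. No further barcode was removed here and no doublet caller was run, so droplets with more than 1 cell can be present in any class.

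Groups were taken from the genotype labels. The members and the gene lists were chosen with earlier results of these data known. Barcodes were clustered with scanpy 1.11.5 (2000 variable genes, 20 principal components, 15 neighbours, Leiden resolution 0.8, leidenalg 0.10.2), leaving out 39 genes of the acute phase lists. A cluster took the name of another class from markers at least 3-fold over the rest, each with at least 10 UMIs, with 3 or more such markers and a median of at least 3 marker UMIs per barcode.

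UMIs were summed per library and divided by the total of the set, to give CPM. Ratios carry exact conditional binomial 95% intervals, levels exact Poisson intervals and shares Clopper-Pearson intervals. A gene was past 2-fold when its whole interval was. Counts under 3 UMIs were raised to 3 for the value of a ratio, but not for its interval. Genes of the other lists were named when their interval excluded 0, up to 6 per list by size of ratio, and all ligands were named. The most alike were the 3 genes of highest correlation, less 1 that is not reported here. Calculations were checked on simulated counts with known answers and used Python 3.11.15, numpy 2.4.6, scipy 1.17.1 and pandas 2.3.3. The normalization of edgeR 4.0.16 was used as an alternative only. Promoter windows are from RefSeq on GRCm38.p6 for 8 of the 10 members. Positions are those of RefSeq on the same assembly.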

Additional observations from a re-analysis of the deposited data

How the results depend on the processing

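No paired analysis was possible because each group has 1 sample. Of the members past 2-fold lower in the hepatocyte set (2), 1 was left, Hamp, with edgeR's TMM factors, with totals without mitochondrial genes, with totals that also left out the 50 most abundant genes, without barcodes above 30% mitochondrial UMIs, with barcodes weighted equally, with tetYAP 4W thinned to the control depth, at Leiden resolution 1.2, with the set chosen without clusters, with the largest cluster of each library alone and with other classes in place of the set, and 0 were left with totals of the 12 hepatocyte genes. The share of all genes past 2-fold lower was 5.57% in the main setting and 3.65% with TMM factors. It was 0.986% without mitochondrial genes, 1.12% also without the 50 most abundant and 0.408% with hepatocyte totals. It was 0.507% without barcodes above 30% mitochondrial UMIs, 4.53% with equal weights and 4.195% with tetYAP 4W thinned. It was 4.43% at resolution 1.2, 4.16% without clusters, 5.001% with the largest clusters and 1.4% with other classes. Of the members past 2-fold higher (4), 7 were counted with each of the 3 other kinds of total. These were no mitochondrial genes (beside 12.5% of all genes), also without the 50 most abundant (11.9%) and hepatocyte genes (25.9%). Without barcodes above 30% mitochondrial UMIs 3 were counted, beside 13.6%, without clusters 2, beside 1.49%, and with other classes 1, beside 1.54%. Over all barcodes, the hepatocyte totals gave 7 higher (from 3), beside 70.4% of 12621 genes, and 0 lower (from 2), beside 0.412%. The median log2 ratio over all genes was then 2.15, so the higher count did not set the members apart. Totals without mitochondrial genes gave 1 lower over all barcodes, beside 2.05%. Orm1 was above 0 only with the hepatocyte totals (0.28 in the set, 0.32 over all barcodes).

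The number of members with a dispersion index above 1.5 in the control went from 1 to 0 without mitochondrial genes in the totals, with 1000 UMIs per barcode, without barcodes above 30% mitochondrial UMIs and with the largest cluster alone, and in tetYAP 4W from 6 to 1 with 1000 UMIs. The median correlation of control pairs (0.083) was 0.0393, 0.0328, 0.0373 and 0.0184 in the same order. That of tetYAP 4W pairs (0.141) was 0.0545 without mitochondrial genes and 0.057 with 1000 UMIs. For the counts of members above 1.5, the share of all genes at these settings is not given, so the changes do not set the members apart. The set held 78.8% and 54.8% of member UMIs, 92.3% and 63.5% at resolution 0.4, 84.5% and 62.2% at 1.2, and 92.7% and 57.8% with the acute phase genes kept in the clustering. The totals without mitochondrial genes (also for the other gene lists), the largest cluster of each library for the ratios and the other classes were chosen after seeing the data.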
